A study of Mus musculus with 13 samples.

Results

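The membrane adenylyl cyclases are the enzymes that make cyclic AMP (cAMP) from ATP at the plasma membrane. The genes described here are *Adcy2*, *Adcy3*, *Adcy4*, *Adcy5*, *Adcy6*, *Adcy7*, *Adcy8* and *Adcy9*, 8 of the 33618 genes in the count table. They were taken by matching the Ensembl mouse identifiers of the table to these symbols, and they were chosen for the direction of the isoforms between the genotypes. Their genotype contrast is therefore given as a description. Where a member is said to lie past the threshold of the fit over all genes, this describes the values used to choose it and is not evidence of a change. RNA-Seq had been run on whole parametrial white adipose tissue (pmWAT), the gonadal fat depot of female mice, from 7 *Lmna* fl/fl control mice and 6 *Lmna* iADKO mice. Both groups carried floxed alleles of *Lmna*, the gene for lamin A/C, and all 13 mice received tamoxifen at 50 mg/kg on 5 consecutive days at 12 to 14 weeks of age. Only the iADKO mice also carried Adipoq-CreERT2, a tamoxifen-activated Cre driven by the adiponectin promoter, which acts in adipocytes and not in the other cells of the tissue. Tissue was taken 2 weeks after tamoxifen, and each library came from a different mouse. In whole tissue, fewer cells of a type and less RNA per cell cannot be told apart.

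Stimulatory receptors act through the G protein subunit Gαs to activate the cyclases, inhibitory receptors act through Gαi, and the cAMP that results activates protein kinase A (PKA). In fat, β-adrenergic signals that raise cAMP start lipolysis, and insulin lowers cAMP through a phosphodiesterase. The isoforms differ in what else they read. ADCY3 and ADCY8 belong to the calcium- and calmodulin-responsive group, ADCY2, ADCY4 and ADCY7 are stimulated by Gβγ together with Gαs, ADCY5 and ADCY6 are inhibited by Gαi and by calcium, and ADCY9 responds poorly to the plant diterpene forskolin.

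The isoform genes lie on different chromosomes, apart from 2 pairs, *Adcy5* with *Adcy9* on chromosome 16 and *Adcy6* with *Adcy8* on chromosome 15 (GRCm39, GENCODE vM39). *Adcy5* spans chr16:34975023-35126113 on the plus strand, with 21 exons in its canonical transcript. *Adcy6* spans chr15:98487854-98507957 on the minus strand with 22 exons, and *Adcy7* spans chr8:88998882-89059394 on the plus strand with 28 exons. *Adcy7* shares 1505 bp of exon with the antisense gene *Brd7*, *Adcy3* shares 2363 bp with *Cenpo*, and *Adcy2* shares 1637 bp with *Cfap90*. *Adcy5* and *Adcy6* each overlap an antisense long noncoding RNA, over 605 bp of exon for *Adcy6*, and *Adcy9* shares 1576 bp with another, *Gm60084*. Whether the counting used strand is not given in the sources used here, so reads over these stretches may belong to either gene. *Adcy9* shares 325 bp with a processed pseudogene, *Gm6142*, on its own strand.

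The genotype contrast of *Adcy5* and *Adcy7* had opposite signs, and the DNA just upstream of their starts is shown for that reason, without a claim that it bears on the contrast. Each sequence holds the 250 bases before the canonical GENCODE start in GRCm39, 5′ to 3′ along the gene, and overlaps no annotated exon. The canonical start of *Adcy5* is the first base of its annotated span, whereas the canonical start of *Adcy7* lies inside its span, since other annotated *Adcy7* transcripts start further upstream. Capitals mark the letters GGAAGT, the core of sites for ETS family factors, and GGGCGG, the GC box, on either strand. The *Adcy5* window is chr16:34974773-34975022 and the *Adcy7* window is chr8:89015318-89015567, both on the plus strand.
Adcy5: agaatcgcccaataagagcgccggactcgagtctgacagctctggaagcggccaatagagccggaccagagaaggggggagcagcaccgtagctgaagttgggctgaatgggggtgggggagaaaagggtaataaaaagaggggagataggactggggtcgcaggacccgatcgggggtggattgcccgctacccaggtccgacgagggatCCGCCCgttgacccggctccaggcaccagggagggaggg
Adcy7: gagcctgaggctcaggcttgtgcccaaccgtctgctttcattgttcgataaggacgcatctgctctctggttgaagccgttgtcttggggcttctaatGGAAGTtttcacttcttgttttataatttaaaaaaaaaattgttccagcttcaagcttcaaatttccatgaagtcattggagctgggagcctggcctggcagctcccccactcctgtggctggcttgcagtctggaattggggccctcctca

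The *Adcy5* window had a GC content of 62.8% with 16 CG pairs, and the *Adcy7* window had 49.2% with 4 CG pairs, against a median GC content of 53.2% over 21717 such windows of protein-coding genes. In the *Adcy5* window a GC box was read on the opposite strand, 39 to 34 bases before the start, and 36.3% of all windows held one. In the *Adcy7* window the ETS core stood 152 to 147 bases before the start, and 19% of all windows held it. Neither window held the longer ETS site GAGGAAGT (2.09% of windows), the cAMP response element TGACGTCA (1.69%), its core TGACG (18%) or the PPAR-RXR direct repeat with 1 base between its repeats (0.0368%) on either strand. GAGGAAGT contains the ETS core, and TGACGTCA contains TGACG. Of the other members searched, *Adcy9* held 4 GC boxes and no other match, *Adcy4* held 2 ETS cores, *Adcy3* held TGACG alone, and *Adcy2* held none of these letters. *Adcy6* and *Adcy8* were not searched. A match is a stretch of letters and was not tested as a binding site.

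The libraries held 18854223 to 19776491 reads assigned to genes. *Lmna* itself, counted over the whole gene, read 84.7 ± 7.51 CPM (read counts scaled to library size by TMM; mean ± SD, n = 7) in fl/fl and 96.7 ± 11.5 CPM (n = 6) in iADKO, with a log2 fold change of 0.19 (SE 0.079, adjusted p = 0.0785, edgeR). Without fl/fl 5 and iADKO 6, which are described below, *Lmna* was called higher in iADKO, at 0.19 (SE 0.067). The targeted exons could not be counted apart from the rest, so directions rest on the labels. The adipocyte markers summed to between 4460 and 12900 CPM in every library, which bears out fat tissue but does not tell the depot. One library of each genotype stood apart, fl/fl 5 and iADKO 6. The 10 most abundant genes took 9.54% of reads in fl/fl 5 against 12.7% to 14.3% in the other fl/fl libraries, and 9.12% in iADKO 6 against 6.51% to 7.21% in the other iADKO libraries. The mean log2 CPM of 6 adipocyte markers was 10.04 in fl/fl 5 and 9.98 in iADKO 6, while the other fl/fl libraries lay at 10.30 or more and the other iADKO libraries at 9.54 or less. Contrasts are given with and without both libraries. They were left out after the data had been seen, and removing a library that lies near the other genotype widens a difference by construction. Each library name carries an animal number, and the mice were sorted here into 4 series of nearby numbers. No label gives a series, and the cuts between series could have been drawn otherwise. The number of iADKO 1, placed in series C, stood apart from the others of that series. Values within a series and fits with the series as a block rest on this sorting, and other cuts were not tested. Series B held 2 mice of each genotype, fl/fl 5 and iADKO 6 among them, series C held 3 fl/fl and 2 iADKO mice, and the remaining 2 series held mice of 1 genotype each.

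*Adcy5* and *Adcy6* had lower and *Adcy7* had higher mean levels in iADKO pmWAT, while the means of *Adcy3*, *Adcy4* and *Adcy9* lay close together and *Adcy2* was low in both genotypes. The filter on low counts kept 7 of the 8 members, all but *Adcy8*. With an adjusted p under 0.05 over the 16753 genes tested (edgeR quasi-likelihood test), 3 of the 7 lay past the threshold, 1 higher and 2 lower. Over all genes 30.5% were called, 14.1% as higher and 16.3% as lower. The members were chosen on this contrast, and nothing is read from their calls or their share. In none of the 7 were the genotypes fully separated, which was the case for 6.64% of all genes, 2.71% with every iADKO mouse above and 3.93% with every iADKO mouse below the fl/fl mice.

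**Figure D1:**
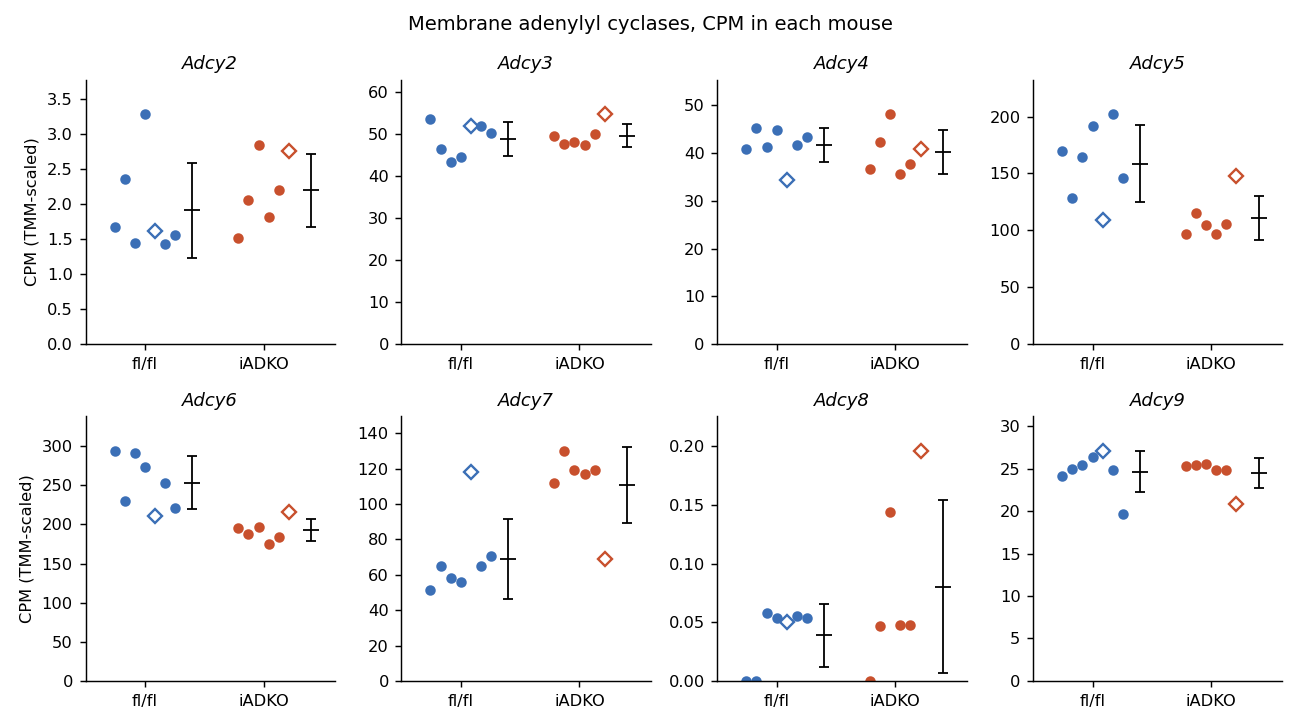
CPM of each isoform (y axis, TMM-scaled, starting at 0) in each mouse of the 7 fl/fl (blue) and 6 iADKO (orange) mice, with the mean ± SD as a black bar. Open diamonds are fl/fl 5 and iADKO 6. For *Adcy7* the open diamonds, at 118 and 68.8 CPM, lie among the mice of the other genotype.

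*Adcy6*, one of the Gαi-inhibited isoforms, ranged from 211 to 294 CPM in fl/fl (median 253) and from 175 to 216 CPM in iADKO (median 192). The lowest fl/fl library was fl/fl 5 and the highest iADKO library was iADKO 6, and 5 of 6 iADKO mice lay below every fl/fl mouse. The log2 fold change was -0.39 (SE 0.086), that is 0.761 of the fl/fl level. Without fl/fl 5 and iADKO 6 it was -0.49 (SE 0.077), and the genotypes no longer overlapped. The difference of mean log2 CPM was -0.30 within series B and -0.49 within series C.

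*Adcy5*, the close relative of *Adcy6*, ranged from 109 to 202 CPM in fl/fl (median 164) and from 96.4 to 148 CPM in iADKO (median 106). The same 2 libraries made the overlap, with fl/fl 5 at 109 CPM and iADKO 6 at 148 CPM, and 4 of 6 iADKO mice lay below every fl/fl mouse. All 6 were below the fl/fl median. The log2 fold change was -0.51 (SE 0.14), or 0.70 of the fl/fl level, and -0.71 (SE 0.11) without both libraries. Within series B it was -0.28 and within series C -0.53. With the animal-number series as a block, the log2 fold change was -0.43 for *Adcy5*, no longer past the threshold, and -0.41 for *Adcy6*.

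*Adcy7*, an isoform known for its expression in blood and immune cells, ranged from 51.3 to 118 CPM in fl/fl (median 64.7) and from 68.8 to 130 CPM in iADKO (median 118). The spread within each genotype came from a single mouse. Fl/fl 5 read 118 CPM where the other 6 fl/fl mice read 51.3 to 70.6, and iADKO 6 read 68.8 CPM where the other 5 iADKO mice read 112 to 130. All 6 iADKO mice were above the fl/fl median, and 3 were above every fl/fl mouse. The log2 fold change was 0.69 (SE 0.19), or 1.61 times the fl/fl level, and 0.95 (SE 0.077) without both libraries. Within series B, which holds both libraries, it was 0.14, and within series C it was 1.07. It was 0.63 with the series as a block and 0.68 with no filter on low counts, in both cases no longer past the threshold. The antisense neighbour *Brd7* had a log2 fold change of -0.14 (SE 0.052), opposite in sign to *Adcy7*.

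When each of the 13 mice was left out in turn, the log2 fold change ran from -0.61 to -0.45 for *Adcy5*, from -0.43 to -0.35 for *Adcy6* and from 0.63 to 0.87 for *Adcy7*. Without both libraries *Adcy5*, *Adcy6* and *Adcy7* lay past the threshold and the genotypes did not overlap for any of them, which again describes the values they were chosen on. In that fit 42.9% of 16769 genes were called, 19.6% as higher and 23.3% as lower, and 26.3% did not overlap, 12% above and 14.3% below.

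**Figure D2:**
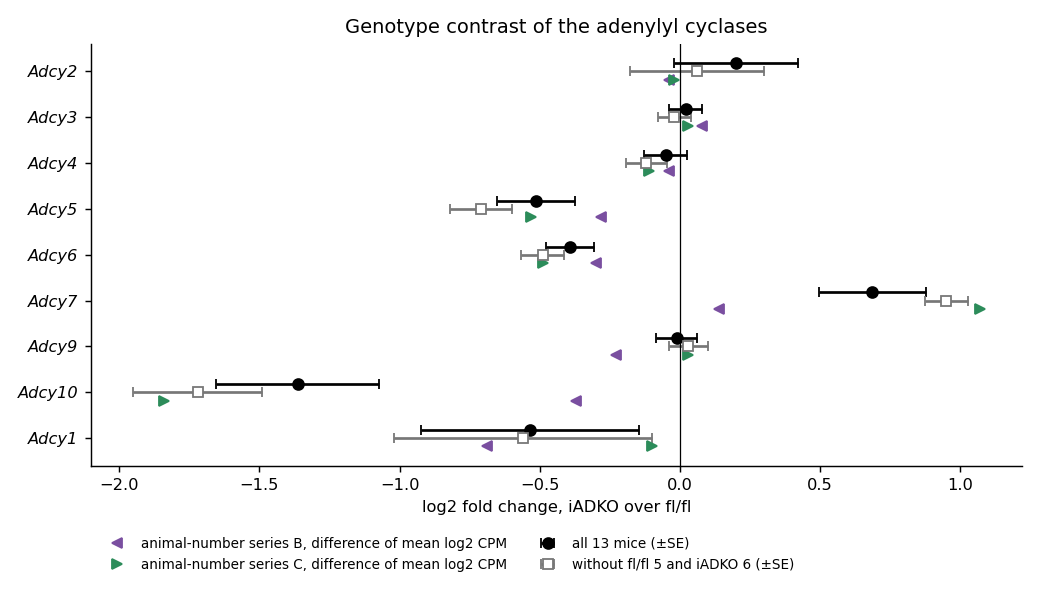
Log2 fold change of each adenylyl cyclase gene, iADKO over fl/fl (x axis), from all 13 mice (black circles, ±SE), without fl/fl 5 and iADKO 6 (open squares, ±SE), and as the difference of mean log2 CPM within animal-number series B (purple) and C (green). *Adcy8* was not tested, *Adcy10* and *Adcy1* are the cyclases outside the 8, and for *Adcy7* series B lies at 0.14 and series C at 1.07.

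The other Gβγ-stimulated isoforms are *Adcy4* and *Adcy2*, and for both the log2 fold change over all 13 mice was smaller than its SE. *Adcy4*, which is known from endothelial cells, ranged from 34.4 to 45.3 CPM in fl/fl (median 41.7) and from 35.6 to 48.1 CPM in iADKO (median 39.2), with a log2 fold change of -0.05 (SE 0.077). It was lowest in fl/fl 5 and highest in iADKO 3, and the genotypes overlapped over nearly the whole range. Without fl/fl 5 and iADKO 6 its log2 fold change was -0.12 (SE 0.074), larger than its SE, and it was not called. *Adcy2* was low, with 25 to 61 reads per fl/fl library and 31 to 59 per iADKO library. Its level was 1.91 ± 0.68 CPM in fl/fl and 2.20 ± 0.52 CPM in iADKO, a log2 fold change of 0.20 (SE 0.22), and 0.06 (SE 0.24) without both libraries.

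*Adcy3*, the isoform of olfactory cilia that has also been linked to obesity, had the smallest coefficient of variation between mice of the tested members, 8.29% in fl/fl and 5.51% in iADKO. It ranged from 43.5 to 53.6 CPM in fl/fl (median 50.4) and from 47.4 to 54.8 CPM in iADKO (median 48.9), with a log2 fold change of 0.02 (SE 0.059). *Adcy9* ranged from 19.7 to 27.1 CPM in fl/fl (median 25.0) and from 20.9 to 25.6 CPM in iADKO (median 25.1), with a log2 fold change of -0.01 (SE 0.073). Both signs turned in some fits that left out mice. *Adcy8*, a brain isoform, had 5 reads in all 7 fl/fl libraries together and 10 in the 6 iADKO libraries, at most 4 in any library, so its level could not be compared at this depth.

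Levels of different isoforms were compared per kilobase of annotated exon. In fl/fl pmWAT *Adcy6* was the most abundant isoform at 36.4 ± 4.86 CPM per kb, followed by *Adcy5* at 21.4 ± 4.5, *Adcy4* at 8.85 ± 0.767, *Adcy7* at 5.96 ± 1.93 and *Adcy3* at 3.94 ± 0.327 (SD, n = 7). *Adcy9* stood at 1.56 ± 0.153, *Adcy2* at 0.142 ± 0.0505 and *Adcy8* at 0.00431 ± 0.00295 CPM per kb. *Adcy6* and *Adcy5*, the Gαi- and calcium-inhibited isoforms, together made up most of the family's reads per length, with shares of 46.4% and 27.1%. In all 7 pairs of neighbours in this order the difference within a library passed the threshold (exact two-sided sign-flip permutation test, adjusted p from 0.0182 to 0.0312 over the 7 pairs, where 0.0156 is the smallest unadjusted p that 7 mice allow). The order held in every fl/fl mouse except for *Adcy4* above *Adcy7*, which was turned in fl/fl 5. When the longest annotated transcript was taken as the length, *Adcy4* and *Adcy7* (exact permutation test, adjusted p = 0.109) and *Adcy7* and *Adcy3* (adjusted p = 0.297) no longer differed beyond their spread.

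In iADKO pmWAT *Adcy6* again led at 27.7 ± 2.05 CPM per kb and *Adcy5* followed at 15.0 ± 2.58 (SD, n = 6). *Adcy7* came next at 9.60 ± 1.86 and *Adcy4* stood at 8.54 ± 0.981 CPM per kb, the reverse of their order in fl/fl. These 2 did not differ beyond their spread in iADKO (exact permutation test, adjusted p = 0.344 over 7 pairs), with *Adcy7* above *Adcy4* in 5 of 6 mice and below it in iADKO 6. The other 6 neighbour pairs passed, each at the smallest unadjusted p that 6 mice allow, 0.0312 (exact permutation test, adjusted p = 0.0365). *Adcy7* made up 7.83% ± 3.29 of the family's level per length in fl/fl and 14.5% ± 3.11 in iADKO, while *Adcy6* made up 46.4% ± 2.89 and 41.6% ± 1.66 (SD, n = 7 and 6). The summed level of the 8 isoforms was 78.3 ± 7.29 CPM per kb in fl/fl and 66.6 ± 3.72 in iADKO.

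**Figure D3:**
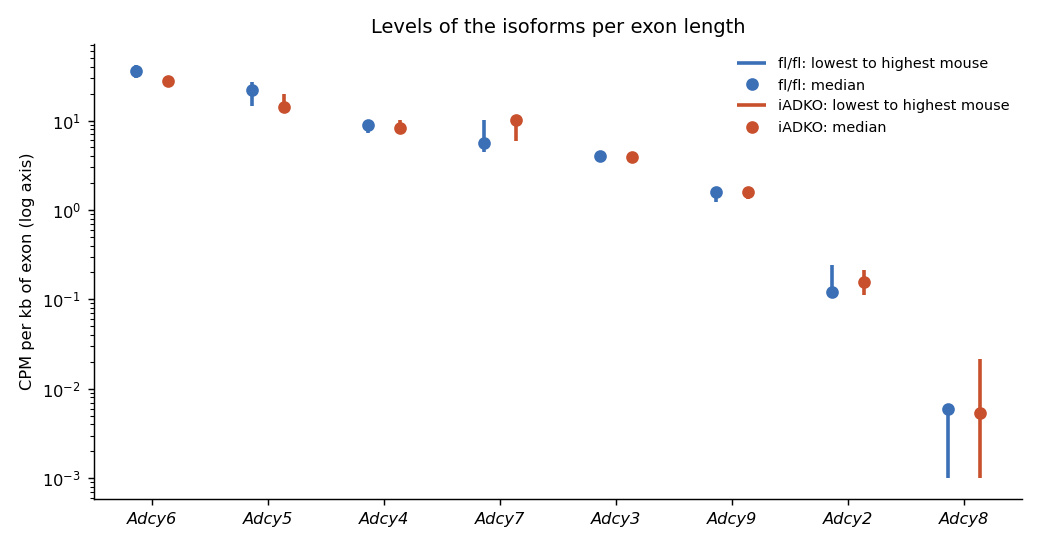
Level of each isoform in CPM per kb of annotated exon (y axis, log scale) in fl/fl (blue) and iADKO (orange) mice, with the median as a point and the lowest to highest mouse as a line. Mice with no *Adcy8* read are drawn at the lower end of the axis. The fl/fl medians fall from 36.3 CPM per kb for *Adcy6* to 0.00597 for *Adcy8*.

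The ratio of *Adcy7* to *Adcy6* per kilobase set the isoforms of opposite direction against each other within a library. It ran from 0.105 to 0.335 in fl/fl (median 0.154) and from 0.191 to 0.417 in iADKO (median 0.376). The highest fl/fl ratio was that of fl/fl 5 and the lowest iADKO ratio that of iADKO 6. The ratio of *Adcy5* to *Adcy6*, which had the same direction, ran from 0.487 to 0.749 in fl/fl (median 0.541) and from 0.462 to 0.640 in iADKO (median 0.531).

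The RNA of cell type markers in the tissue moved with genotype, which is not a count of cells. By flow cytometry of this depot at the same time, the study reported no difference in macrophages between the genotypes. All 6 adipocyte markers (*Adipoq*, *Plin1*, *Plin4*, *Cidec*, *Retn*, *Acvr1c*) fell, with a median log2 fold change of -0.92, and their summed level was 7670 to 12900 CPM in fl/fl and 4460 to 7380 in iADKO. Of 9 macrophage markers, among them *Adgre1*, *Cd68* and *Csf1r*, 6 rose and none fell, with a median of 0.67, and the summed level was 1950 to 5190 CPM in fl/fl and 3020 to 5190 in iADKO. The highest fl/fl sum was that of fl/fl 5 and the lowest iADKO sum that of iADKO 6, the same mice that were extreme for *Adcy7*. The same held for the sums of the progenitor and the mesothelial markers, so it was not particular to macrophage markers. Of 6 endothelial markers 3 fell (median -0.16), 2 of 4 B cell, 2 of 5 T cell and 2 of 3 epithelial markers rose, and no progenitor, mural, mesothelial, Schwann or skeletal muscle marker was called. Over all genes tested 14.1% were called higher and 16.3% lower. The marker calls are from the fit without a block, and the lists were chosen with earlier results of these data known. The part of the marker shifts in the contrasts of *Adcy5*, *Adcy6* and *Adcy7* was not tested. IADKO 6 also lay outside the range of the other iADKO mice in further lists. Its mean log2 CPM was 5.05 for the mesothelial markers, against 6.14 to 7.10 in the others. For the epithelial markers it was 4.98, against 2.29 to 3.65.

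Within a genotype, where the contrast plays no part, each of the 7 tested members was set against the adipocyte and the macrophage score, the mean log2 CPM of each list, giving 28 relations over mice. By Pearson's r, 4 passed after adjustment over the 28 (exact permutation test). In fl/fl, *Adcy6* rose with the adipocyte score (r = 0.86, p = 0.00298, adjusted p = 0.0352, Spearman's rho = 0.96, p = 0.00278, adjusted p = 0.0778, exact permutation tests, n = 7). *Adcy7* went the opposite way (r = -0.92, p = 0.00377, adjusted p = 0.0352, rho = -0.86, p = 0.0238, adjusted p = 0.222, exact permutation tests, n = 7). *Adcy6* fell with the macrophage score in fl/fl (r = -0.84, p = 0.00675, adjusted p = 0.0472, rho = -0.82, p = 0.0341, adjusted p = 0.239, exact permutation tests). In iADKO, *Adcy3* fell with the macrophage score (r = -0.96, p = 0.00278, adjusted p = 0.0352, rho = -0.94, p = 0.0167, adjusted p = 0.222, exact permutation tests, n = 6). In fl/fl, *Adcy3* and the macrophage score had r = 0.33 (n = 7), of the opposite sign, which did not pass. *Adcy7* and the macrophage score in fl/fl had r = 0.91 with an adjusted p of 0.05 (exact permutation test), which missed the threshold.

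With the 2 mice farthest from the median score left out, r was 0.78 for *Adcy6* and -0.54 for *Adcy7* against the adipocyte score in fl/fl, -0.65 for *Adcy6* against the macrophage score in fl/fl and -0.76 for *Adcy3* in iADKO. Only 5 mice in fl/fl and 4 in iADKO then remained, too few for the loss of a call after adjustment over 28 relations to say whether a relation holds. The value of r changed little for *Adcy6* against the adipocyte score, and it went from 0.91 to 0.24 for *Adcy7* against the macrophage score in fl/fl. With all mice, no relation passed by Spearman's rho after adjustment. Without fl/fl 5 alone, *Adcy6* and *Adcy7* had r of 0.80 and -0.79 with the adipocyte score in fl/fl. With the macrophage score they then had r of -0.80 and 0.66. Without iADKO 6 alone, *Adcy3* had r of -0.74 with the macrophage score in iADKO. For *Adcy7* and the macrophage score in iADKO, r went from 0.94 to -0.11 when iADKO 6 was left out.

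**Figure D4:**
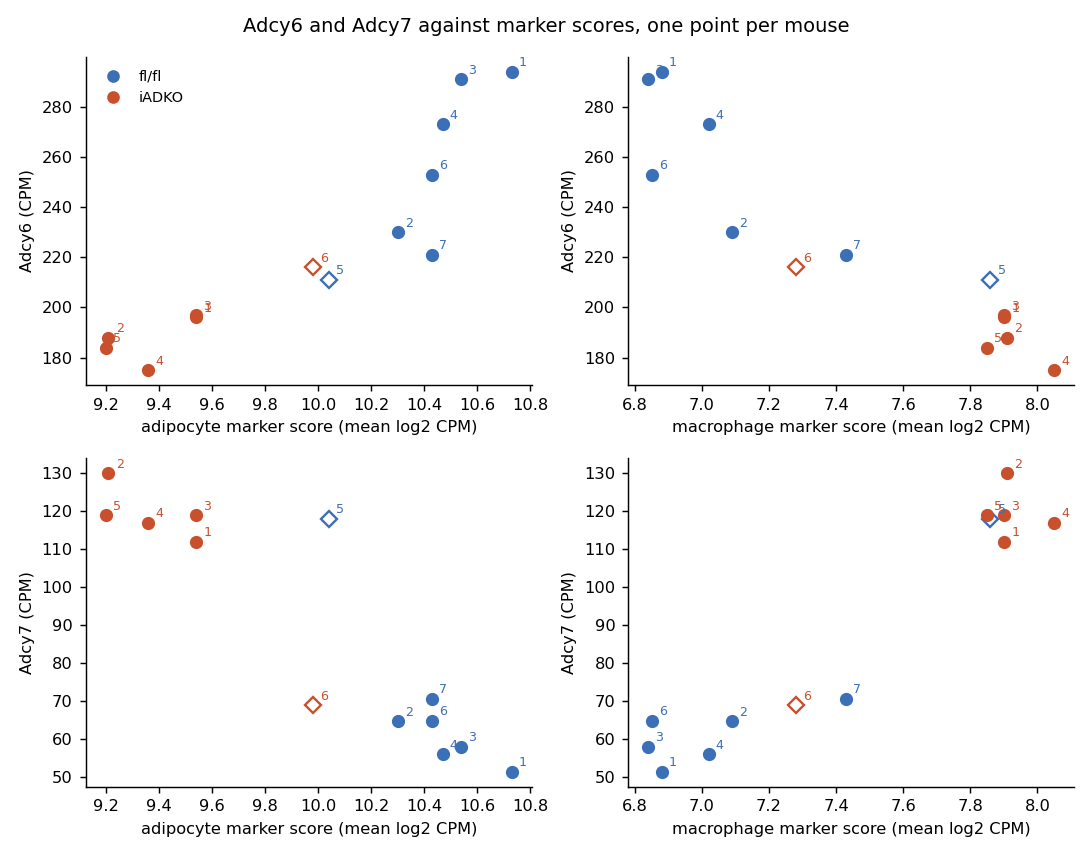
CPM of *Adcy6* (top) and *Adcy7* (bottom) against the adipocyte (left) and macrophage (right) marker scores in mean log2 CPM, 1 point per mouse with its number, fl/fl in blue and iADKO in orange. Open diamonds are fl/fl 5 and iADKO 6, whose adipocyte scores of 10.04 and 9.98 lie between those of the other mice of the 2 genotypes.

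The genes whose pattern over the 13 mice was most like each isoform, after the mean of each genotype was taken out, were ranked by Pearson's r among 13855 genes. The correlation is a description, and the mice share their cell composition. For *Adcy7* they were *Gm10134*, *Wipf1*, an actin regulator of hematopoietic cells, and *Myo9b*, an unconventional myosin, each at r = 0.98 over 13 mice and at 0.82, 0.80 and 0.84 over the 11 mice without fl/fl 5 and iADKO 6. For *Adcy6* they were *Slc35b4* (0.94, and 0.91 over 11 mice), *Prelp* (0.93 and 0.91) and *Gnai1* (0.93 and 0.89), the gene of a Gαi subunit. For *Adcy5* they included *Mief2* (0.93 and 0.84) and *Crls1* (0.90 and 0.73), both of mitochondrial proteins. *Adcy9* was nearest to *Slc13a3* (0.94), *Glg1* (0.92) and *Zfp521* (0.91), *Adcy4* to *Hmgcs1* (0.88), *Tead4* (0.86) and *Mtrf1l* (0.86), *Adcy3* to *Mlst8* (0.86), *Tmco4* (0.86) and *Tmem138* (0.85), and *Adcy2* to *Rrm2b* (0.87), *Tmem161a* (0.84) and *Ift43* (0.84).

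The rest of the cAMP pathway was followed in 8 lists by role, with 102 genes of which 96 were tested. Of these, 18 rose (18.8%) and 17 fell (17.7%), against 14.1% and 16.3% of all genes tested, and the median log2 fold change was 0.03, the same as over all genes. The counts of the lists below are to be read against these shares. With the animal-number series as a block, 7 pathway genes were called higher and 9 lower. Of the genes named below, those that then no longer passed are given in each paragraph. Some called genes that are not named were also lost in that fit. Adjusted p-values below are from the same edgeR fit.

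Of 17 receptors that raise cAMP, 4 rose and 3 fell. *Adrb3*, the β3-adrenergic receptor of adipocytes, fell from 294 to 620 CPM in fl/fl (median 430) to 126 to 376 CPM in iADKO (median 186), a log2 fold change of -1.14 (SE 0.25, adjusted p = 0.0047). The receptors for corticotropin, *Mc2r* (-0.93), and thyrotropin, *Tshr* (-0.88), also fell. The prostaglandin E2 receptors *Ptger2* (0.72) and *Ptger4* (0.54) and the secretin receptor *Sctr* (0.69, at 1.34 to 5.26 CPM) rose. *Adrb1* (-0.53) did not pass. With the series as a block, *Adrb3*, *Tshr*, *Ptger4* and *Sctr* no longer passed.

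Of 13 receptors that lower cAMP, 4 fell and 1 rose. The adenosine receptor *Adora1* (-0.95, adjusted p = 0.000576), the lactate receptor *Hcar1* (-0.95) and the succinate receptor *Sucnr1* (-0.75) fell, and the cannabinoid receptor *Cnr2*, known from immune cells, rose (0.72, adjusted p = 0.0278). Leaving out each mouse in turn kept the *Cnr2* call 6 times of 13. With the series as a block, *Hcar1*, *Sucnr1* and *Cnr2* no longer passed.

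Of 15 G protein subunit genes, *Gnai1* (-0.60) and *Gnb5* (-0.39) fell and *Gng2* (0.43) rose. *Gnas*, which encodes Gαs, ranged from 536 to 753 CPM in fl/fl and from 557 to 646 CPM in iADKO, and its log2 fold change of -0.20 (SE 0.082, adjusted p = 0.0754) did not pass. Without fl/fl 5 and iADKO 6 *Gnas* was called lower, at -0.30. Of 8 cyclase and G protein regulators 3 rose and none fell, namely the cyclase-associated protein genes *Cap1* (0.31) and *Cap2* (0.82) and the calmodulin gene *Calm2* (0.26). *Gnai1*, *Gng2* and *Cap2* no longer passed with the series as a block.

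Of 14 phosphodiesterases that hydrolyse cAMP, 4 fell and 2 rose. *Pde3b*, through which insulin lowers cAMP in adipocytes, fell from 307 to 462 CPM in fl/fl to 159 to 293 CPM in iADKO with no overlap, a log2 fold change of -0.93 (SE 0.14, adjusted p = 0.000538). *Pde1a* (-0.69) and *Pde8a* (-0.28) fell, and *Pde1b* (0.37) and *Pde7a* (0.33) rose. *Pde8a* and *Pde7a* no longer passed with the series as a block.

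Of 12 cAMP effector genes, 2 fell and 3 rose. *Prkar2b*, the type II PKA regulatory subunit of fat, fell from 549 to 878 CPM to 295 to 533 CPM with no overlap, a log2 fold change of -0.92 (SE 0.14, adjusted p = 0.000641), and the catalytic subunit *Prkaca* fell by 0.53 on the log2 scale. The PKA inhibitor genes *Pkib* (1.08, at 1.83 to 6.91 CPM) and *Pkig* (0.23) and the regulatory subunit *Prkar1b* (0.32) rose. Of 9 PKA anchoring proteins, *Akap7* (-0.72) and *Akap9* (-0.22) fell and *Akap12* (0.35), *Akap13* (0.28) and *Akap10* (0.13) rose. Of 8 CREB factors and coactivators only *Ep300* passed (0.20, adjusted p = 0.0355), and of 5 guanylyl cyclases, the cyclases that make cGMP, only *Npr2* (-0.36) did. Leaving out each mouse in turn kept the call 3 times of 13 for *Prkar1b*, 4 times for *Akap10* and 3 times for *Ep300*, and *Prkar1b* was not called without fl/fl 5 and iADKO 6. With the series as a block, *Prkar1b*, *Akap9*, *Akap10*, *Akap13*, *Ep300* and *Npr2* no longer passed.

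**Figure D5:**
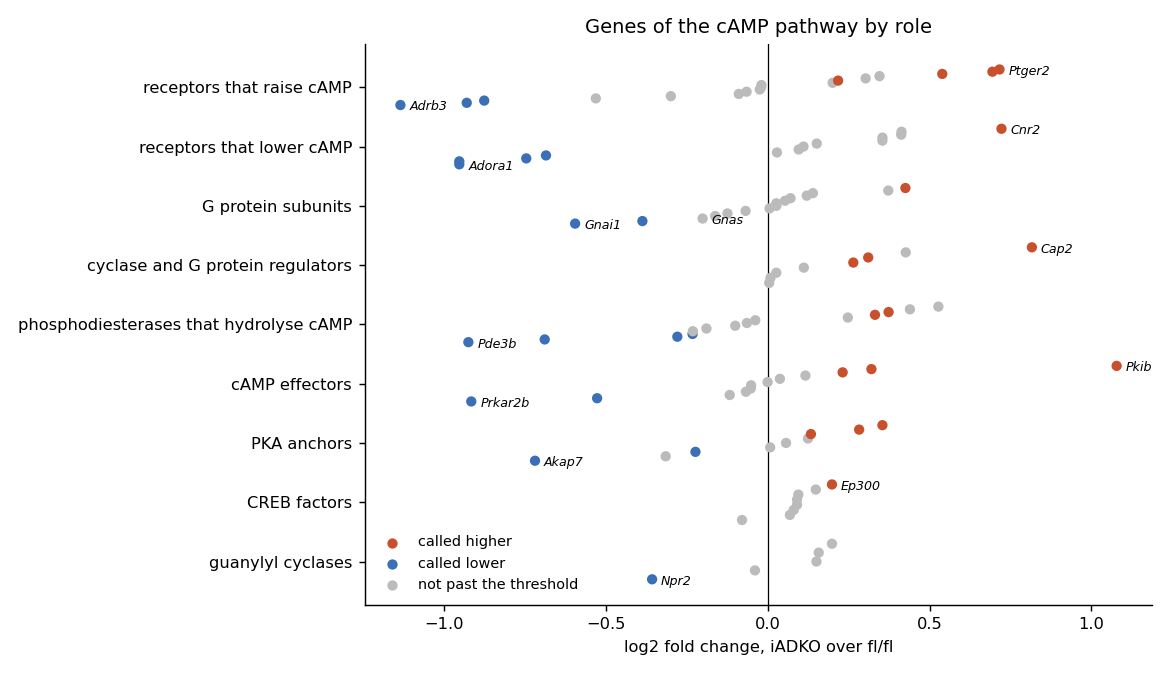
Log2 fold change, iADKO over fl/fl (x axis), of each tested gene of the cAMP pathway lists and of the guanylyl cyclases (rows), with 1 point per gene, orange where it was called higher, blue where lower and grey where it did not pass. *Adrb3* lies at -1.14 and *Pkib* at 1.08, and 18 genes rose and 17 fell over the 8 pathway lists.

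The cyclases outside the 8 were also read. *Adcy10*, the soluble bicarbonate-responsive cyclase, ranged from 1.67 to 7.08 CPM in fl/fl (median 3.68) and from 1.12 to 2.50 CPM in iADKO (median 1.36), with a log2 fold change of -1.36 (SE 0.29, adjusted p = 0.00401, edgeR) that rested on 33 to 129 reads per fl/fl library and 23 to 51 per iADKO library. It was -1.72 without fl/fl 5 and iADKO 6, -0.37 within series B and -1.84 within series C, and it was not called with the series as a block (-1.23, adjusted p = 0.0586). Its upstream neighbour on the same strand, the mitochondrial pyruvate carrier gene *Mpc2*, also fell (-0.61, adjusted p = 0.00846), and whether reads of one were counted to the other was not tested. *Adcy1*, a calmodulin-stimulated isoform of brain, did not pass at 2.29 ± 1.74 CPM in fl/fl and 1.58 ± 0.584 CPM in iADKO (log2 fold change -0.54, SE 0.39). Fl/fl 7 read 6.14 CPM where the other fl/fl mice read 1.09 to 2.28. When each mouse was left out in turn, the log2 fold change of *Adcy1* ran from -0.72 to -0.06.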

How the data were processed

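Bulk RNA-Seq of pmWAT from 13 mice (7 fl/fl, 6 iADKO), made from strand-specific mRNA libraries, was used. Per the labels and the study's methods, the authors checked reads with FastQC (0.12.1), aligned them with STAR (2.7.11a) and processed counts with DESeq2. The genome build was mm39, and the counting tool, annotation and strand setting are not given in the sources used here. The deposited raw counts per gene, whole numbers with no normalization, were the main input. The deposited rlog table, log2 values made by the authors with DESeq2, served as an alternative. Of 33618 identifiers, 33184 were found in GENCODE vM39, which gave symbols and exon lengths, and of 172 listed genes only *Akap2* was not found under its symbol.

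Counts were filtered with filterByExpr, scaled by TMM and tested with edgeR 4.0.16 (glmQLFit with robust estimation and glmQLFTest, R 4.3.3) with genotype as the only term and Benjamini-Hochberg adjustment over 16753 genes, at a threshold of 0.05. The study used DESeq2, which was run as an alternative (1.42.0), as were limma (3.58.1) on the rlog values, other size factors and filters, blocks by replicate number and by animal-number series, and each mouse left out. The fit was tested on simulated data, in which 79% of 200 genes changed by 1 on the log2 scale were recovered for this comparison, with 3.07% of calls false, over 16353 genes. DESeq2 recovered 80.5% of them, with 14.8% of calls false. Far fewer genes were changed there than were called here, and no simulated library lay near the other genotype. The false share of the calls in these data is therefore not known from it. No 2 libraries agreed within sampling noise (chi-square per degree of freedom at least 8.16). Levels between isoforms were log2(CPM per kb + 0.01). Depth was 18854223 to 19776491 reads per library.

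The members and all gene lists were chosen with earlier results of these data known. Named genes are all members, *Lmna*, up to 3 called genes with the highest and up to 3 with the lowest log2 fold change in each pathway list, *Adrb3*, *Gnas*, *Pde3b* and *Prkar2b*, and for each tested member the 3 genes with the highest genotype-centred r among genes whose mean log2 CPM reached 1, apart from an item that is not reported here. *Adrb1*, *Adcy1*, *Adcy10*, *Mpc2*, *Brd7* and the other overlapping genes were added after their values were seen. Upstream sequences are GRCm39 at GENCODE canonical starts. Members without an entry in the RefSeq promoter table (GRCm38.p6) were not searched.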

Additional observations from a re-analysis of the deposited data

Results flagged for a closer look

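Within a genotype, a mouse was noted where its gap to the nearest of the others, divided by the range, passed Dixon's 95% critical value. Of 84 groups of 1 gene in 1 genotype, 13 were noted, and chance gives about 1 in 20.

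In iADKO, the mouse iADKO 6 stood apart for 7 genes. It was lowest for *Adcy7* (68.8 CPM, others 112 to 130), *Adcy9* (20.9 CPM, others 24.8 to 25.6) and *Pkib* (3.49 CPM, others 5.40 to 6.91). It was highest for *Adcy3* (54.8 CPM, others 47.4 to 50.0), *Gnas* (646 CPM, others 557 to 584), *Prkar2b* (533 CPM, others 295 to 356) and *Prkaca* (157 CPM, others 121 to 131).

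In fl/fl, the mouse fl/fl 5 stood apart for 3 genes, highest for *Adcy7* (118 CPM, others 51.3 to 70.6) and lowest for *Adcy4* (34.4 CPM, others 40.9 to 45.3) and *Adora1* (144 CPM, others 186 to 213). Single values of other mice were the lowest *Adcy9* in fl/fl 7 (19.7 CPM, others 24.2 to 27.1), the lowest *Sctr* in fl/fl 4 (1.34 CPM, others 2.18 to 3.06) and the highest *Akap12* in iADKO 1 (206 CPM, others 182 to 190).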

How the results depend on the processing

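With the animal-number series as a block, fewer genes were called, 1986 (784 higher, 1202 lower), with 0 members higher and 1 lower and 7 pathway genes higher and 9 lower. Only 2 series hold both genotypes, and the series were drawn here from the animal numbers, not given by the labels. With no filter on low counts, 0 members were called higher, since *Adcy7* had an adjusted p of 0.0514 (edgeR). Leaving out each mouse in turn gave 3998 to 6604 called genes (1769 to 3319 higher, 2216 to 3285 lower), 1 member higher and 2 lower each time, and 14 to 22 pathway genes higher and 16 to 18 lower. With the 2 mice farthest from the median score left out, 0 marker relations passed in place of 4, but the 4 or 5 mice that remained were too few for this to bear on stability. Signs turned for 3 members that were not called. *Adcy2* was -0.064 with the series as a block. *Adcy3* was -0.007 without fl/fl 3, -0.002 without fl/fl 4, -0.011 without iADKO 6 and -0.017 without both libraries, and at most 0.043 without any 1 mouse. *Adcy9* was 0.005 without fl/fl 4, 0.016 without fl/fl 5, 0.029 without iADKO 6 and 0.031 without both, and at least -0.06 without any 1 mouse. The causes were not tested.

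The labels give no shared mouse, litter or day for a replicate number. The mean r of same-numbered pairs was 0.107 and that of other pairs -0.0248, and 3 of 6 pairs had r over 0.1, so pairing was not taken as given. Pairs 1, 2 and 4 also share an animal-number series. Of the fl/fl mice, 3 of 6 correlated best with their own number. With the replicate number as a block and fl/fl 7 left out, 4833 genes were called (2379 higher, 2454 lower), with 1 member higher and 2 lower and 17 pathway genes in each direction.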
